A study of Mus musculus with 12 samples.

Results

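Myosin heavy chains are the motor proteins of the sarcomere, and the values described here are those of 8 mouse genes that encode its embryonic, neonatal, adult and cardiac forms: Myh1, Myh2, Myh3, Myh4, Myh6, Myh7, Myh7b and Myh8. The probes were those of an Agilent mouse expression array whose transcript accession belongs to 1 of these genes, 11 probes of 39429 on the array, for 8 of the 20659 genes it names. Myh3, Myh6 and Myh8 had 2 probes each, assigned to the same RefSeq transcript, and the other 5 genes had 1. RNA was measured 72 h after transfection of C2C12, an established mouse myoblast line that can fuse into contractile myotubes when serum is withdrawn. The transfection given for each sample defines 4 groups of 3 single-colour arrays: siRNA, titled a MEG3 knockdown; pcDNA3.1-MEG3, titled an overexpression of MEG3 from an expression plasmid; pcDNA3.1, taken here as that plasmid without the insert, which the field does not state, and with the title abbreviation pat1, whose meaning is not given; and negative control. All 4 groups were C2C12 cells in high-glucose medium with 10% serum, and the labels name no switch to a differentiation medium. MEG3 is a long non-coding RNA of the imprinted Dlk1-Dio3 region. Which sequence the siRNA carried and what the negative control consisted of are not given in the sources used here.

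Each sarcomeric myosin heavy chain has an ATP-splitting, actin-binding head and a long tail that coils with its partner and packs into the thick filament. Muscle exchanges these isoforms as it matures: embryonic MyHC (Myh3) and neonatal or perinatal MyHC (Myh8) appear first, and adult fast fibres carry type IIa (Myh2), IIx (Myh1) or IIb (Myh4). Myh7 encodes the slow or beta form, shared by slow fibres and the heart, Myh6 the alpha form of the heart, and Myh7b an ancient slow-type relative found in special muscles and outside muscle. In C2C12 cells, sarcomeric myosin is a classical mark of the change from dividing myoblast to myotube.

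The genes lie in 3 places of the mouse genome. In the RefSeq annotation of GRCm38.p6, Myh3, Myh2, Myh1, Myh4 and Myh8 follow each other in this order on chromosome 11. Myh6 and Myh7 are neighbours on chromosome 14, and Myh7b is on chromosome 2. The array files name an older build, so these positions are annotation and not coordinates of the probes. RefSeq promoter windows from 250 bases before to 50 bases after the transcript start matched all 8 genes. The windows below are those of the 4 genes with at least 1 probe called higher with siRNA and of Myh6, the neighbour of Myh7, which had none. Capitals mark matches, on either strand, to CANNTG (the E-box, bound by MyoD and its relatives), to the MEF2 motif, to the CArG box and to CATTCC (the letters bound by Tead factors). The windows are Myh3 chr11:67078050-67078349, Myh8 chr11:67276874-67277173 and Myh1 chr11:67199852-67200151 on the plus strand, and on the minus strand Myh7 chr14:54994500-54994799, the second of 2 annotated starts, and Myh6 chr14:54966558-54966857. All are GRCm38.p6, 5′ to 3′ on the strand of the gene.
Myh3: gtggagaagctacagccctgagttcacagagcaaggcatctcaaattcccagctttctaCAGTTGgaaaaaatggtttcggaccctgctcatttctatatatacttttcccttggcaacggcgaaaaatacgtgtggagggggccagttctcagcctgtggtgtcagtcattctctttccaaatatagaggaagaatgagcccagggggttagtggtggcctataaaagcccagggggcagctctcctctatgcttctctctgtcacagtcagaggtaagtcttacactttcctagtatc
Myh8: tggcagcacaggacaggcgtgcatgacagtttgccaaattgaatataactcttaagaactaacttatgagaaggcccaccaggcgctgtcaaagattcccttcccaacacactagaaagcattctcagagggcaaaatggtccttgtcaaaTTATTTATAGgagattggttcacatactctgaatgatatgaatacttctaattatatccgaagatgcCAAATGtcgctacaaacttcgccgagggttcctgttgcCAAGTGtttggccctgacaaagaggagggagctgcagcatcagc
Myh1: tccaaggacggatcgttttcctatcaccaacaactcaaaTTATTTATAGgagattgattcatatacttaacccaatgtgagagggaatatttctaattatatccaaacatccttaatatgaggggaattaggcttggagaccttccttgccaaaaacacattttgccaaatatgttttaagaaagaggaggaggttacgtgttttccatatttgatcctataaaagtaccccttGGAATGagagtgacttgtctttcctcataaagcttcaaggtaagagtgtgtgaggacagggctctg
Myh7: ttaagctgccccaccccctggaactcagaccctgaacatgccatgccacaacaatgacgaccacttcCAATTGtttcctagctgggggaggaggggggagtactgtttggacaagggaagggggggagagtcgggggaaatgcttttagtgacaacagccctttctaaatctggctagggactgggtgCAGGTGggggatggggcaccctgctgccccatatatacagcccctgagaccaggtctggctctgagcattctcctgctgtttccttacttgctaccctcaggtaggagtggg
Myh6: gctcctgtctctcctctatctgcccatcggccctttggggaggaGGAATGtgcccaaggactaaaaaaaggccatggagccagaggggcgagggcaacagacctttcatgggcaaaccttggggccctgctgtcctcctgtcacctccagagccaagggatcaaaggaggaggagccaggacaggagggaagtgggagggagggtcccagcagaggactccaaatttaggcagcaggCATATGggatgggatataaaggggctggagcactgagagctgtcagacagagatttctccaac

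The MEF2 motif was present in 3 of the 8 genes, Myh1, Myh4 and Myh8, each time with the letters TTATTTATAG, and 3.19% of 32851 RefSeq windows held a match. Counted from 0 at the transcript start, the match began at -211 in Myh1, -182 in Myh4 and -99 in Myh8. Around it the windows of Myh1 and Myh8 shared a run of 22 bases, tcaaattatttataggagattg, and those of Myh1, Myh4 and Myh8 a run of 15, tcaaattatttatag. A further run of 14, ttctaattatatcc, was common to Myh1, Myh2, Myh4 and Myh8, 4 of the 5 genes of the chromosome 11 cluster. The longest run that Myh3, the fifth, shared with Myh1 had 10 bases, cctataaaag, which hold TATA-like letters. E-box letters were found in every window except those of Myh1 and Myh2, with 1 match in Myh3 at -191, 2 in Myh8 and 1 in Myh6, but 72.3% of all windows held at least 1. CATTCC letters, in 14.7% of all windows, were in Myh1, Myh4, Myh6 and the first start of Myh7. The CArG box, in 1.63% of all windows, was in Myh4 alone among the members. These are matches of letters, and binding was not measured.

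**Figure D1:**
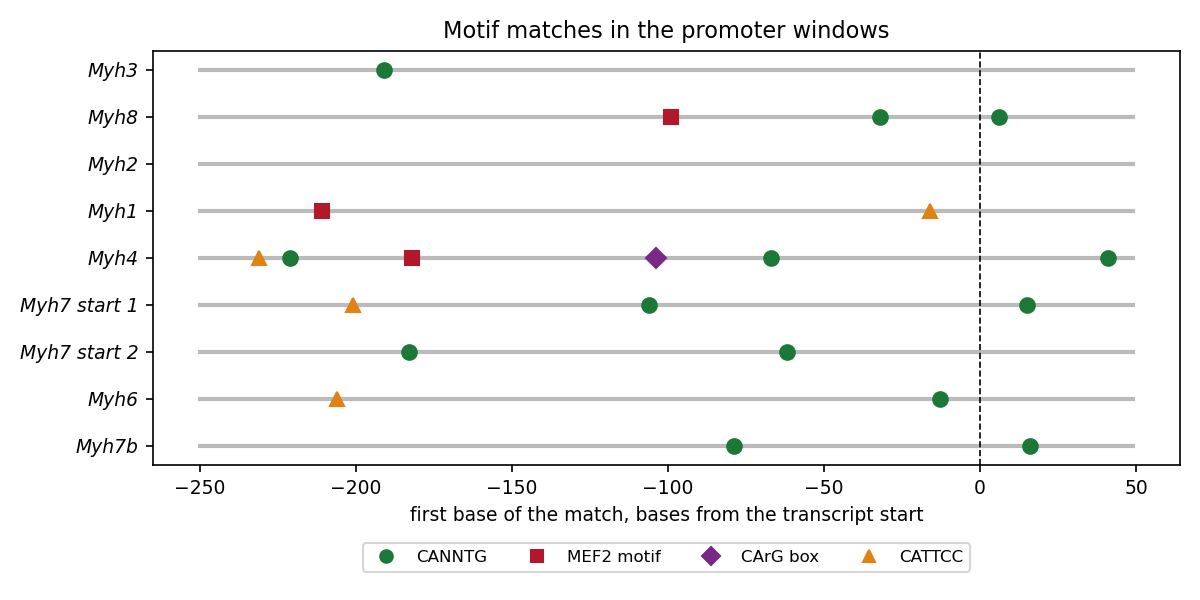
Motif matches in the 300-base RefSeq windows of the 8 genes (Myh7 has 2 annotated starts). The x axis gives the first base of each match in bases from the transcript start (dashed line at 0); grey bars are the windows, and the MEF2 motif stands in Myh8, Myh1 and Myh4.

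Between 62.0% and 75.9% of the probes were well above background on an array, a flag that the scanner software sets for each spot, and the siRNA arrays had the lowest shares (62.0% to 68.6%). All levels below are log2 of the processed signal minus the 75th percentile of the array, so that 0 is the level of a probe at that percentile (1168 to 2266 signal units). Levels of different probes are not on a common scale, since probes differ in how well they hybridise. Replicates 1 and 3 of the siRNA, pcDNA3.1-MEG3 and pcDNA3.1 groups carried the same slide position in 2 scans and differed by 0.308 to 0.363 times the noise between spots of 1 probe. Replicates 1 and 3 of the negative control also differed by less than that noise (0.952 times), so each such pair was counted as 1 sample. Replicate 2 of pcDNA3.1-MEG3 likewise differed from its replicates 1 and 3 by slightly less than that noise (0.999 and 0.995 times). It was nevertheless kept as a separate sample, so the 2 samples of that group may not be independent. That left n = 2 samples per group, and p-values measure only the spread between them, which may be technical. Negative control replicate 2 stood apart from its group, at 5.69 and 5.23 times the noise from the other 2 arrays. The siRNA arrays and the negative control arrays lay on different slides that held no other group. Slide and group therefore cannot be told apart in any comparison that involves either of them, also those with the plasmid groups. Only the 2 plasmid groups shared a slide.

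Meg3 went against the plasmid labels. Detection of probe A_51_P455997 over background succeeded on 0 siRNA arrays, 0 arrays labelled pcDNA3.1-MEG3, all 3 labelled pcDNA3.1 and 1 negative control array, with mean levels of -7.31, -7.17, -2.43 and -6.69. A second probe, A_55_P2033407, was likewise detected with the label pcDNA3.1 on all 3 arrays and on 0 of the other 9, and the third on 0 of 12. Every direction between the plasmid groups below therefore holds for the labels only. The loss of Meg3 with siRNA could not be checked, because Meg3 was near background in the negative control. Of 8 myogenic markers (among them Des, Myod1 and Cdh15), 7 were well above background on every siRNA array, 7 and 7 on every array of the plasmid groups and 8 on every negative control array.

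The comparison of siRNA with the negative control asked which RNAs differ when MEG3 is targeted. In the cells labelled siRNA, both probes of embryonic Myh3, 1 of the 2 probes of neonatal Myh8 and the probes of adult fast Myh1 and slow Myh7 were higher, by 5.03-fold to 132-fold. The other Myh8 probe was not above background on any array and was not tested. The probes of Myh6 and Myh7b did not pass the test, and Myh2 and Myh4 stayed too close to background to be tested. A count of 5 of the 8 tested probes was called higher and 0 lower, where 7.28% of all 29550 tested probes were called higher and 4.73% lower. RNA from more cells of a differentiated type and more RNA per cell cannot be told apart in these cultures.

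Among the 8 tested probes, both probes of embryonic myosin had the largest measured differences, while Myh1 and Myh8 were measured against a negative control close to background. Myh3 probe A_55_P2066440 read 3.49, 3.42 and 3.43 on the siRNA arrays, -2.70, -2.70 and -2.67 on the arrays labelled pcDNA3.1-MEG3, -2.56, -2.63 and -2.58 on those labelled pcDNA3.1, and -2.90, -4.34 and -2.84 on the negative control arrays. In signal units this was 12630 to 13570 with siRNA, 235.9 to 245.8 and 220.9 to 234.9 in the plasmid groups, and 111.7 to 171.5 in the negative control. The siRNA arrays stood far above all 9 others, and the lowest value was that of negative control replicate 2. Against the negative control the log2 difference was 7.05 (SE 0.44, limma adjusted p = 0.00109), 132-fold, and it ranked 6 from the top among the 29550 probes. Without negative control replicate 2 it was 6.31.

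The second Myh3 probe, A_55_P2083406, read 2.08, 2.06 and 2.08 with siRNA, -3.57, -3.53 and -3.64 and then -3.65, -3.94 and -3.54 on the arrays labelled pcDNA3.1-MEG3 and pcDNA3.1, and -4.43, -5.07 and -4.16 in the negative control. The siRNA arrays again did not overlap any other group. The difference from the negative control was 6.75 (SE 0.28, limma adjusted p = 0.000417), 108-fold. The 2 probes gave similar sizes, and over the 8 samples they correlated at r = 0.997.

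Neonatal myosin rose as well. Myh8 probe A_51_P143296 read -0.98, -1.03 and -0.98 with siRNA, between -5.83 and -5.77 on the arrays labelled pcDNA3.1-MEG3, between -6.30 and -5.67 on those labelled pcDNA3.1, and -5.99, -6.30 and -5.83 in the negative control. Only the siRNA arrays were far from background: 594 to 622 signal units, against 20.1 to 28.8 in the negative control, where 2 of 3 spots were well above background. The difference was 5.10 (SE 0.22, limma adjusted p = 0.000438), 34.3-fold. The other Myh8 probe, A_55_P2120161, was well above background on 0 of 12 arrays and read between -6.95 and -6.54 with siRNA and between -6.97 and -6.39 in the negative control. The 2 probes of Myh8 thus disagree, although the files assign them to the same transcript. The probe sequences were not used here, so whether a probe also takes up RNA of a near-identical neighbour in the cluster was not tested.

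Of the adult fast isoforms, Myh1 alone passed the filter on dim probes. Its probe A_55_P2147280 read -0.42, -0.49 and -0.49 with siRNA, -5.45, -5.22 and -5.56 on the arrays labelled pcDNA3.1-MEG3, -6.22, -5.97 and -6.39 on those labelled pcDNA3.1, and -6.09, -6.71 and -6.37 in the negative control. In that order 3, 3, 0 and 1 of these spots were well above background. The difference of siRNA from the negative control was 5.99 (SE 0.22, limma adjusted p = 0.000344), 63.7-fold, with the negative control close to background. Myh2 probe A_55_P2106068 read -4.79, -4.67 and -4.96 with siRNA, between -6.85 and -5.64 on the arrays labelled pcDNA3.1-MEG3, between -8.07 and -7.26 on those labelled pcDNA3.1 and between -6.68 and -6.05 in the negative control. Its spot stood well above background once with siRNA, on 2 arrays with the label pcDNA3.1-MEG3, and on 0 of the other 6. Myh4 probe A_51_P338072 read -6.14, -6.10 and -6.22 with siRNA and between -9.20 and -8.35 on the other 9 arrays, where it gave 3.18 to 4.41 signal units and was never well above background. With siRNA 1 of 3 Myh4 spots was, at 18.5 units. The siRNA arrays were thus the highest for Myh2 and Myh4 too, but their levels are bounds and no fold is given.

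Slow myosin changed by less. Myh7 probe A_55_P2093232 read -2.05, -2.11 and -2.08 with siRNA, -4.04, -4.05 and -4.07 on the arrays labelled pcDNA3.1-MEG3, -3.74, -4.01 and -3.80 on those labelled pcDNA3.1, and -4.45, -4.37 and -4.47 in the negative control. All 12 spots were well above background and the siRNA arrays did not overlap the others. The difference from the negative control was 2.33 (SE 0.14, limma adjusted p = 0.00104), 5.03-fold.

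The cardiac alpha form did not pass the test. Myh6 probe A_55_P2173952, well above background on all 12 arrays, read -5.15, -4.59 and -5.33 with siRNA, -4.45, -4.60 and -4.47 on the arrays labelled pcDNA3.1-MEG3, -3.50, -3.61 and -3.42 on those labelled pcDNA3.1, and -5.08, -5.21 and -5.08 in the negative control. The siRNA and negative control arrays overlapped, with a difference of 0.23 (SE 0.24, limma adjusted p = 0.58). The second Myh6 probe, A_55_P2140453, read -6.79, -6.29 and -6.38 with siRNA, with 0 of 3 spots well above background, and -5.39, -5.55 and -4.94 in the negative control. Its difference of -1.08 (SE 0.48, limma adjusted p = 0.203) did not pass, and no fold is given. Myh7b probe A_55_P2057321 read -7.95, -6.66 and -7.94 with siRNA, again with 0 of 3 spots well above background, and -7.53, -6.09 and -5.81 in the negative control. These overlapped, and the difference of -0.92 (SE 0.44, limma adjusted p = 0.237) did not pass. Without siRNA replicate 2 it was -1.56 and passed, at adjusted p = 0.0265.

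The sizes of the siRNA differences depended on the background correction. With the normexp background model after removal of spots whose local background exceeded their signal, an alternative chosen after seeing the data, the same 5 probes were called, but the differences were 3.70 for Myh1 and 3.11 for Myh8. The planned normexp fit, which failed on 3 arrays, called 0 of 8, and Myh7 missed the threshold when the siRNA and negative control arrays were fitted alone (adjusted p = 0.0520).

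**Figure D2:**
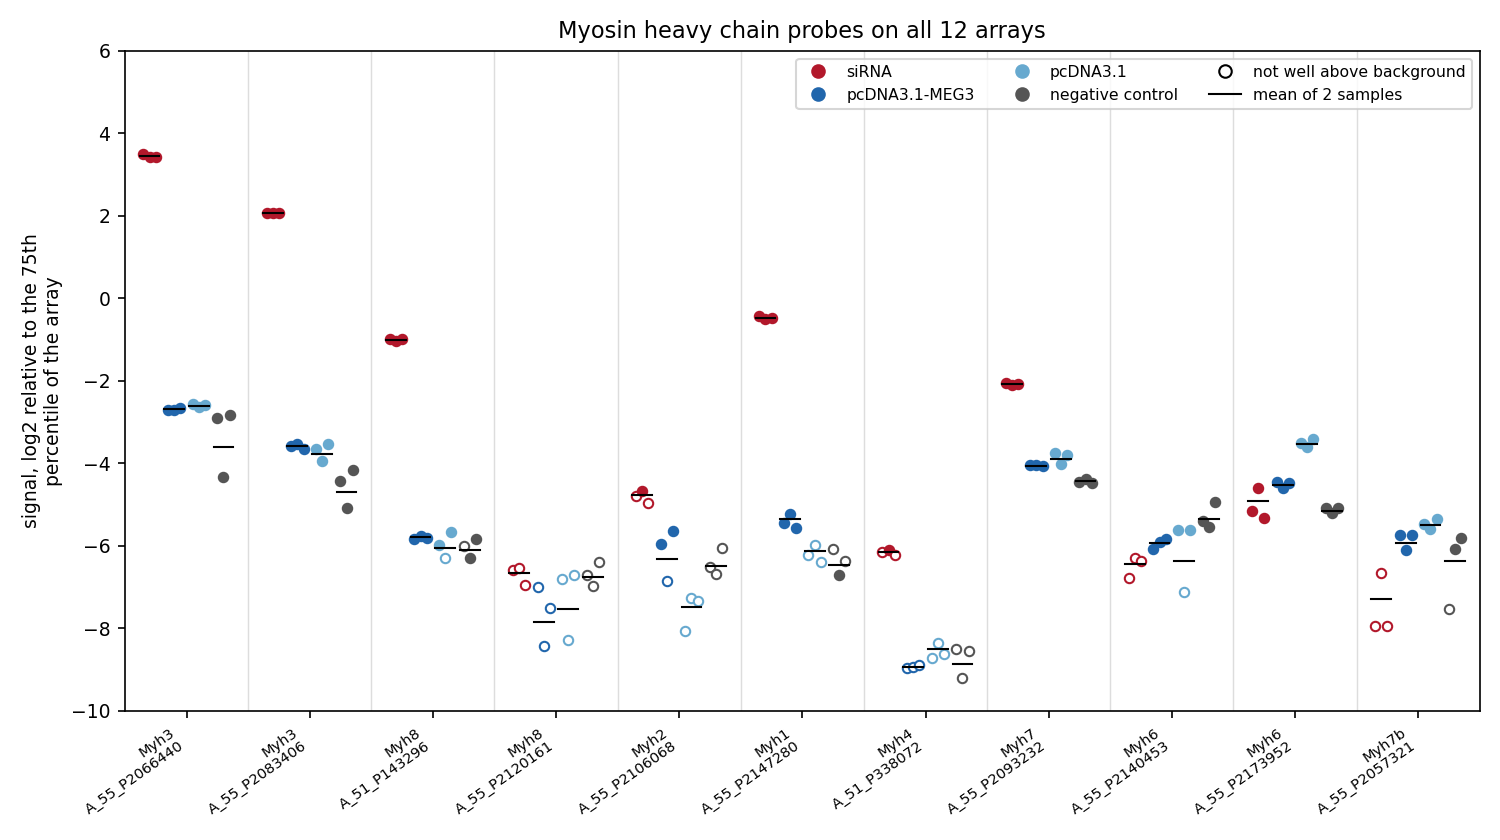
Level of each of the 11 myosin heavy chain probes on each of the 12 arrays (y axis, log2 of the signal relative to the 75th percentile of the array; groups by colour, open circles where the spot was not well above background, black lines the mean of the 2 samples of a group). The siRNA arrays stand above all others for both Myh3 probes, for Myh8 A_51_P143296, Myh1 and Myh7, and overlap the negative control for Myh6 A_55_P2173952.

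Set against both plasmid groups together, the siRNA arrays gave the same order of isoforms and added lower values for Myh7b and 1 Myh6 probe. Markers of other cell types differed here as well: 3 of 5 tested smooth muscle and 3 of 6 fibroblast markers were higher with siRNA and 0 lower, and of 8 myogenic markers 4 were higher. Summed smooth muscle levels were 148 to 159 times the 75th percentile with siRNA, 69.1 to 72.0 with the label pcDNA3.1-MEG3 and 90.3 to 98.1 with the label pcDNA3.1. Most of each sum was Acta2 alone, at mean levels of 6.98, 5.96 and 6.41 in that order. The part of these markers in the myosin differences was not tested. This comparison shares the siRNA arrays with the one above, so it repeats them against other cells rather than adding evidence. In siRNA cells 5 of 8 probes were higher and 2 lower, where 10.4% of all tested probes were higher and 8.88% lower. Myh3 was higher by 6.09 (SE 0.39) and 5.74 (SE 0.24) on the log2 scale with its 2 probes, Myh1 by 5.28 (SE 0.19), Myh8 by 4.93 (SE 0.19) and Myh7 by 1.88 (SE 0.12), with limma adjusted p between 0.000124 and 0.000698. Myh6 probe A_55_P2173952 was lower by -0.88 (SE 0.20, limma adjusted p = 0.0339), whereas the second Myh6 probe gave -0.28 (SE 0.41, adjusted p = 0.631) and did not pass. For A_55_P2173952 the siRNA arrays (mean -4.915) overlapped those labelled pcDNA3.1-MEG3 (mean -4.53). They lay below all arrays labelled pcDNA3.1 (mean -3.54). Myh7b was at least 1.51-fold lower (log2 difference -1.59, SE 0.38, limma adjusted p = 0.0384), but it had passed the filter on dim probes through the plasmid groups alone, where it is higher, so this call is not independent of the filter. Its spots passed the background flag 0 times with siRNA and on all 6 plasmid arrays, which read between -6.11 and -5.35. Both lower calls ended when the arrays were centred on their median (adjusted p = 0.0683 for Myh6 and 0.0507 for Myh7b) and when either sample of either plasmid group was left out.

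Between the plasmid groups no myosin heavy chain probe passed. The comparison was made to show what MEG3 overexpression does, and the direction follows the labels, which Meg3 itself contradicts. Of 29550 probes, 0.00677% were called by limma, which is 2 probes, and 3477 had an unadjusted p under 0.05. The Myh3 probes differed by -0.09 (SE 0.44) and 0.19 (SE 0.28), Myh8 by 0.27 (SE 0.22), Myh7 by -0.16 (SE 0.14) and Myh7b by -0.42 (SE 0.44). These are within 2 SE of 0, and the median over all tested probes was -0.14. Myh6 probe A_55_P2173952 was lower on all 3 arrays labelled pcDNA3.1-MEG3 than on all 3 labelled pcDNA3.1, with a difference of -0.99 (SE 0.24, unadjusted p = 0.00579, limma adjusted p = 0.217). Within the 2 scans of the slide the difference was -0.97 and -1.06. The second Myh6 probe gave 0.43 (SE 0.48), the opposite sign, with 1 of 3 arrays labelled pcDNA3.1 not above background. Myh1 was higher on all 3 arrays labelled pcDNA3.1-MEG3 than on any array labelled pcDNA3.1, by 0.78 (SE 0.22, limma adjusted p = 0.285) and by 0.76 and 0.83 within the scans. Myh1 was not above background on any array labelled pcDNA3.1, at 15.8 to 22.9 signal units, against 31.8 to 42.3 with the label pcDNA3.1-MEG3. Counting all 12 arrays as separate samples passes both differences (adjusted p = 0.00474 for Myh6 and 0.0135 for Myh1). Arrays that differ by less than spot noise then enter as replicates. With the plasmid groups fitted alone, still as 2 samples each, Myh6 passed (adjusted p = 0.0231) and Myh1 did not (0.0740). That fit called 3674 of all probes. The main fit pools the spread of all 4 groups. For Myh3 A_55_P2066440 the SD was 1.04 in the negative control, 0.0415 with the label pcDNA3.1 and 0.0102 with the label pcDNA3.1-MEG3.

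The plasmid groups against the negative control compare cells given a plasmid with cells given a negative control of unstated make-up, on different slides. Myh1, Myh3 and Myh6 were higher in the plasmid groups averaged together, each by 1 probe. That was 3 of 8 probes called higher and 0 lower, where 12.8% of all tested probes were called higher and 8.32% lower. Myh6 probe A_55_P2173952 was higher by 1.12 (SE 0.20, limma adjusted p = 0.0173), and none of the 6 plasmid arrays overlapped the negative control. The second Myh6 probe was at -0.79 (SE 0.41, adjusted p = 0.211), in the opposite direction. With quantile normalization that second probe passed as lower (-1.18, adjusted p = 0.0356). Myh3 probe A_55_P2083406 was higher by 1.02 (SE 0.24, adjusted p = 0.0337), and by 0.63 without negative control replicate 2. The other Myh3 probe was at 0.96 (SE 0.39) and did not pass (adjusted p = 0.127), and at 0.23 without that replicate. Myh1, with 0 of 3 arrays labelled pcDNA3.1 and 1 of 3 negative control arrays well above background, was at 0.72 (SE 0.19, adjusted p = 0.0497), close to the threshold, and missed it without negative control replicate 2 (0.48, adjusted p = 0.112). For Myh1 the arrays labelled pcDNA3.1 (mean -6.14) overlapped the negative control (mean -6.47), and those labelled pcDNA3.1-MEG3 had a mean of -5.36. Myh7 was at 0.45 (SE 0.12, adjusted p = 0.0523), Myh7b at 0.67 (SE 0.38, adjusted p = 0.252) and Myh8 at 0.18 (SE 0.19, adjusted p = 0.516). The median over all probes was 0.18 in this comparison, and centring the arrays on their median instead moved it to -0.24 and left 0 of the 3 calls. Leaving out either sample labelled pcDNA3.1-MEG3 also left 0.

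**Figure D3:**
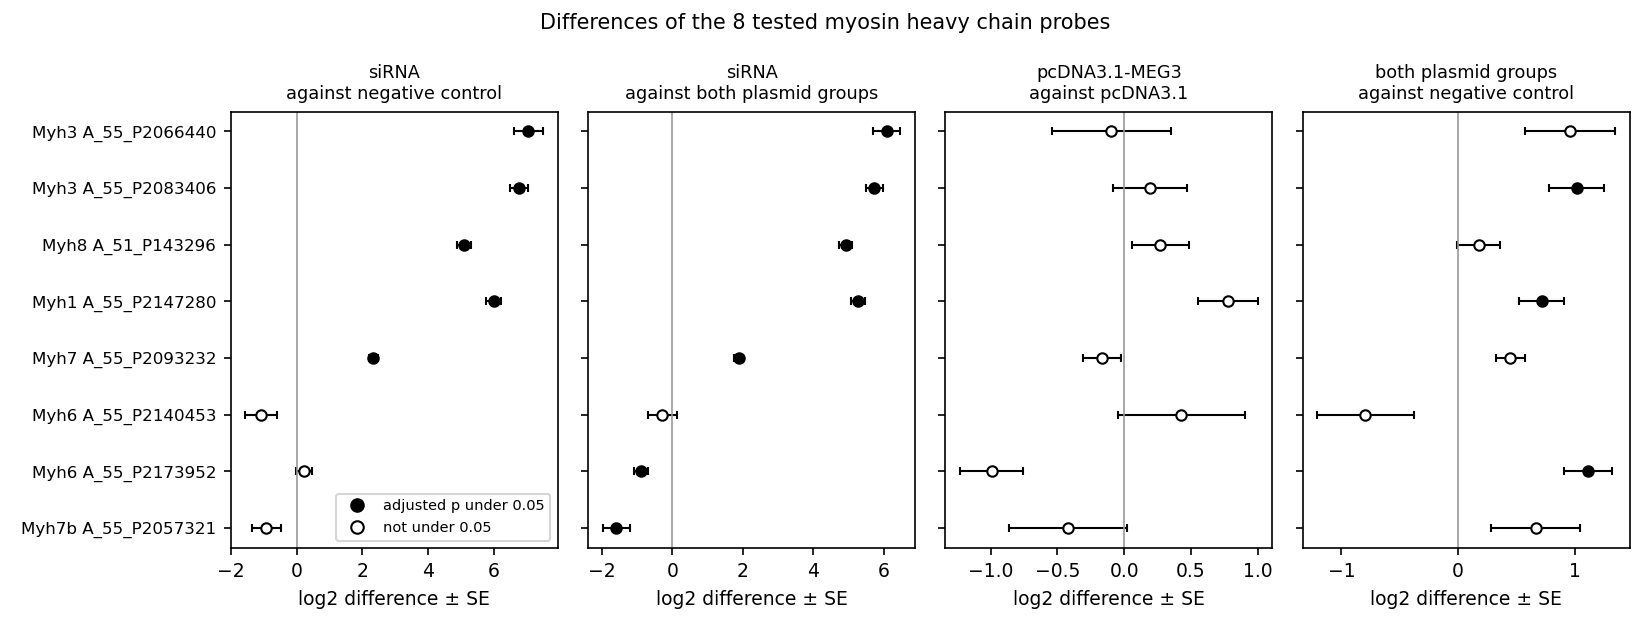
Log2 differences with their standard errors (x axes, on different scales in the 4 panels) for the 8 tested probes; filled points passed at an adjusted p under 0.05. With siRNA, Myh3, Myh8, Myh1 and Myh7 lie to the right of 0 and apart from Myh6 and Myh7b, and no probe is filled between the plasmid groups.

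Across the 8 samples the members fell into those that followed Myh3 and those that did not. As a description over samples that share slides and groups, Myh1, Myh7 and Myh8 A_51_P143296 correlated with the 2 Myh3 probes at r between 0.983 and 0.993, values set by the gap between the 2 siRNA samples and the rest. Myh7b correlated with them at -0.74 and -0.73, and the Myh6 probes at -0.46, -0.45, -0.23 and -0.24. The 2 Myh6 probes correlated with each other at -0.32. Among all other tested probes, the 3 most like Myh3 A_55_P2066440 were Tnnc2, the fast troponin C (r = 0.9994), Actc1, the cardiac actin that embryonic skeletal muscle also makes (0.9993), and Mymx, the small fusion protein myomixer (0.9985). Those most like Myh3 A_55_P2083406 were Myl1, an alkali light chain of fast and embryonic myosin (0.9988), a probe without a gene name (A_55_P2145656, 0.998) and Dusp13, a phosphatase gene (0.9975). For Myh7 they were Srl, the sarcoplasmic reticulum protein sarcalumenin (0.998), Plet1 (0.998) and Tcim (0.998). For Myh6 A_55_P2173952 they included Exph5 (0.984) and 1700013G24Rik (0.974), and neither of these is a sarcomere gene. An r of 0.99 was reached by 38 and 42 probes for the 2 Myh3 probes in this order and by 38 for Myh7. The probes named for them are thus 3 of many, and their r is again set by the gap between the siRNA samples and the rest.

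The proteins that build the thick filament with the heavy chains moved in the same comparison. Of 25 listed light chains, binding proteins, M-band proteins, chaperones and kinases, 23 were tested. With siRNA 12 were higher and 1 lower than in the negative control, where 7.28% of all tested probes were higher and 4.73% lower, and the median log2 difference was 1.04 against 0.05 over all probes. The light chain Myl1 had the largest difference: it was at 4.67 with siRNA and -1.93 in the negative control, a difference of 6.59 (limma adjusted p = 0.000344). Myl4, the atrial and embryonic light chain, was at 4.39 and 0.09, a difference of 4.30 (adjusted p = 0.00107). The M-band proteins Myom3 (5.46, with 1 of 3 negative control spots well above background) and Myom1 (2.37), the giant scaffold titin, Ttn (4.52), the myosin binding protein Mybph (3.15) and the myosin chaperone Unc45b (3.00) also rose, with adjusted p between 0.000543 and 0.00358. Mylk2, Myl6b, Myom2, Mybpc2 and Myl3 rose by 0.87 to 1.21. The one gene that fell was Smyd1, a methyltransferase needed for thick filament assembly, by 0.89 (adjusted p = 0.0339). Myl2, the slow and ventricular regulatory light chain, was at 0.27 (adjusted p = 0.687), and Myl7, the atrial one, had 0 of 3 siRNA spots well above background and was not tested.

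**Figure D4:**
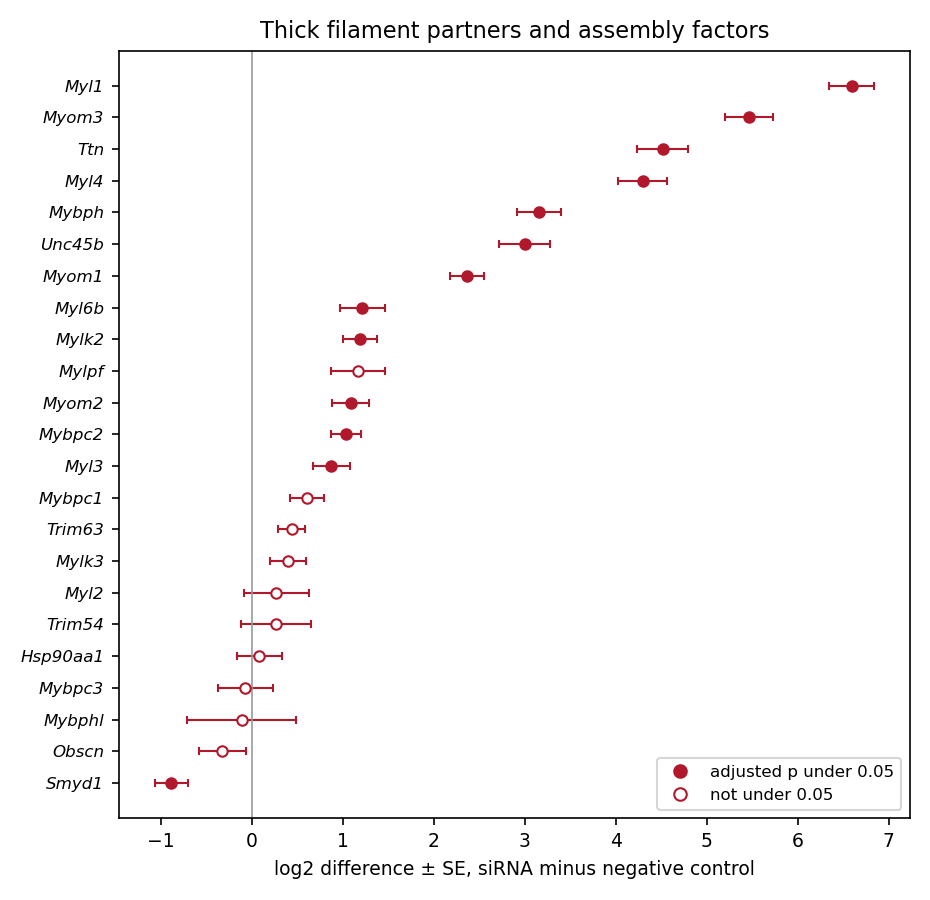
Log2 difference with its standard error, siRNA minus negative control (x axis), for the 23 tested thick filament partners and assembly factors, each by its brightest probe; filled points passed at an adjusted p under 0.05. The 12 that rose run between 0.87 for Myl3 and 6.59 for Myl1, and Smyd1 fell.

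In the plasmid groups against the negative control, 9 of these 23 were higher and 1 lower, where 12.8% of all tested probes were higher and 8.32% lower. Myom3 (1.29, adjusted p = 0.0160), Mylk3, the cardiac myosin light chain kinase (1.17, adjusted p = 0.00980), and Mylpf, the fast regulatory light chain (1.14, adjusted p = 0.0301), were the highest, and Smyd1 fell by 1.48 (adjusted p = 0.00369). The list's median was 0.55 against 0.18 over all probes. Centring the arrays on their median moved the latter to -0.24, and whether the calls of this list hold then was not tested. Between the plasmid groups 0 of 23 passed, with a median of -0.11 against -0.14. Against both plasmid groups the siRNA cells had 10 higher and 1 lower, Mylk3 (-0.77, adjusted p = 0.0313), where 10.4% of all tested probes were higher and 8.88% lower.

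Of 19 listed regulators of the isoforms 16 were tested, and with siRNA 8 were higher and 1 lower than in the negative control, where 7.28% of all tested probes were higher and 4.73% lower, with a median of 0.59 against 0.05 over all probes. Vgll2, a muscle cofactor of Tead factors, had 3 of 3 siRNA spots and 0 of 3 negative control spots well above background and was at least 203-fold higher (adjusted p = 0.000231). It passed the filter on dim probes through the siRNA group alone, where it is high, so its call is not independent of the filter. The myogenic factors Myog (3.47, adjusted p = 0.000438), Myod1 (2.29, adjusted p = 0.0161) and Myf6 (1.19, adjusted p = 0.00920) rose too. Six4, Tead1 and Nfatc1 rose by 0.61 to 0.79, and Mef2a fell by 0.79 (adjusted p = 0.0211). Mef2c, the partner of MyoD in differentiation, had 1 of 3 siRNA spots well above background and did not pass (0.60, adjusted p = 0.593). Sox6 and Prox1, which set fast against slow identity, were not above background with siRNA and were not tested. In the plasmid groups against the negative control 3 of 16 were called higher (Myog 0.51, Ppargc1a 1.14, and Vgll2, for which no fold is given since 0 of 3 negative control spots were well above background) and 1 lower (Mef2a). These counts are near the 12.8% and 8.32% of all tested probes, and between the plasmid groups 0 of 16 passed. Whether the regulator calls hold with the arrays centred on their median was not tested.

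No other class II myosin heavy chain was called. Of Myh9, Myh10, Myh11, Myh13, Myh14 and Myh15, 3 were tested and 0 passed in any of the 4 comparisons. Over all tested probes, 7.28% were higher and 4.73% lower with siRNA against the negative control. For the plasmid groups against the negative control these shares were 12.8% and 8.32%, and for siRNA against the plasmid groups 10.4% and 8.88%. Between the plasmid groups 0.00677% were called. At such shares 0 of 3 does not show that these chains were spared. With siRNA against the negative control, the non-muscle chains Myh9, Myh10 and Myh14 differed by 0.04, 0.32 and 0.57 (adjusted p = 0.939, 0.515 and 0.236). Smooth muscle Myh11 was well above background on 0 of 12 arrays, and extraocular Myh13 on 1. Of 6 listed antisense, intronic and intergenic transcripts of the myosin genes the array held 2. The long non-coding RNA 2310065F04Rik (linc-Myh), annotated between Myh3 and Myh2, had 0 of 3 siRNA and 3 of 3 negative control spots well above background, and its difference of -0.98 did not pass (adjusted p = 0.113). Mhrt, transcribed from the Myh6 and Myh7 locus, was well above background on 1 of 12 arrays, in the negative control, and was not tested.

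Markers of other cell types were counted beside these results. Of 8 cardiomyocyte markers, 6 were tested and 1 passed with siRNA against the negative control, Nkx2-5 (0.85, adjusted p = 0.0349), where 7.28% of all tested probes were higher. Their summed level, as a multiple of the 75th percentile, was 1.35 to 1.41 with siRNA and 0.835 to 1.03 in the negative control, and Tbx5, Myl7 and Pln had 0 siRNA spots well above background. Most of that sum was Gata4 alone, at a level of 0.01 with siRNA and -0.56 in the negative control, which did not pass (adjusted p = 0.120). Such sums add probes that are not on a common scale. Smooth muscle and fibroblast markers had 0 calls in that comparison (5 and 6 tested). Their summed levels were 148 to 159 and 262 to 319 with siRNA, and 111 to 181 and 198 to 294 in the negative control. Most of the first sum was Acta2, and most of the second was Col1a1 and Col3a1. In the plasmid groups 3 of 5 smooth muscle and 3 of 6 fibroblast markers were lower than in the negative control, where 8.32% of all tested probes were lower. Lmod1, among these smooth muscle calls, passed the filter on dim probes through the negative control alone, where it is high. Its call is therefore not independent of the filter. Of 8 myogenic markers 2 were lower as well, Myf5 (at least 23.4-fold) and Itga7 (-0.53), and 0 higher. Of 6 tested cardiomyocyte markers 1 was higher, Gata4 (0.70), where 12.8% of all tested probes were higher. The part of these markers in the small myosin differences there was not tested. Of the 8 myogenic markers, Myod1, Cdh15 and Itga7 were higher and Myf5 lower with siRNA.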

How the data were processed

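RNA of 12 C2C12 samples was hybridised in 1 colour (Cy3). Per the file headers, the spots were read with Agilent Feature Extraction 11.0.1.1; the deposited processed intensity is background-subtracted within the array and not normalized between arrays, and the deposited 0 or 1 flags mark spots well above background or outlying. The series table holds the authors' normalized intensity (30732 probes), by a method not given in the sources used here.

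From 44397 spots per array, 1377 control spots and outlying spots were dropped and spots of a probe averaged. Levels are log2 of the processed signal minus the 75th percentile of the array. A probe was kept if well above background on all arrays of at least 1 group (29611); 61 with only outlying spots in a group were removed, leaving 29550. Replicates 1 and 3 of each group were averaged to 1 sample, so that sample has less noise than replicate 2. One limma 3.58.1 fit (R 4.3.3) over 8 samples gave the 4 comparisons, with Benjamini-Hochberg adjustment over all probes and a threshold of 0.05; limma adjusted p-values are meant throughout. The fit was tested on simulated data with 200 changed probes. Comparisons that share samples are not independent.

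Gene names come from RefSeq accessions (27234 probes with a symbol, 12195 without). Listed genes are given by their brightest tested probe. Named are all member probes, the called members of each list or at most 6 per comparison, some others added after their values were seen (Myl2, Myl7, Mef2c, Sox6, Prox1, Mhrt and the marker genes), and the 3 probes of other genes most correlated with each member probe well above background on 12 arrays. Some genes that this rule names are not reported here. The members and lists were chosen with earlier results of these data known. Promoter sequences are from RefSeq, GRCm38.p6. A bound takes, on each dim array, whichever is higher, the probe's own value or the dimmest signal that still passed the background flag. The alternatives changed the background correction (normexp with offset 50, on median signals since no mean signal column was used), scaling, filter, replicates, samples in the fit and the replicate block. Sample numbers do not pair the groups (correlation of same-numbered deviations between -0.092 and 0.051).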

Additional observations from a re-analysis of the deposited data

How the results depend on the processing

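With siRNA against the negative control, 5 of 8 probes were called, and the count lay between 4 and 7 under every alternative except the planned normexp correction, which called 0. That model fitted background means of -917.5, -805.8 and -45.7 on 3 arrays, and without the spots whose background exceeded their signal, a change chosen after seeing the data, it called 5. Leaving out 1 sample at a time gave 5 to 6 here, 0 to 0 between the plasmid groups, 0 to 4 for the plasmid groups against the negative control and 5 to 7 for siRNA against the plasmid groups.

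Between the plasmid groups 0 were called, against 2 with 12 arrays as samples, 2 with the scan as a random block and 1 with the compared groups alone. The fit with the scan block also enters the repeat arrays as replicates. Its correlation within a scan was -0.321, and with a negative value it makes no allowance for a shift that the arrays of a scan share. For the plasmid groups against the negative control the 3 calls became 7 with the scan block, 1 with the added normexp fit, and 0 with planned normexp, with median centring or with each plasmid group as 1 sample. Quantile normalization and the authors' series table each gave 2 calls there, the 2 Myh6 probes in opposite directions. A_55_P2173952 was higher by 0.72 in both, and A_55_P2140453 was at -1.18 (limma adjusted p = 0.0356 and 0.0349). Myh1 and Myh3 A_55_P2083406 did not pass in either. For siRNA against the plasmid groups the 7 became 1 with planned normexp and 3 with each plasmid group as 1 sample. Replicate numbers do not pair the samples. With the replicate block the 4 comparisons had 5, 0, 2 and 5 calls.

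Signs reversed for values that had not passed. For siRNA against the negative control these were Myh7b (0.19 with the added and 0.53 with the planned normexp), Myh6 A_55_P2140453 (0.33, planned normexp) and Myh6 A_55_P2173952 (-0.0943 without siRNA replicate 2, 0.560 without siRNA replicates 1 and 3). Between the plasmid groups, Myh6 A_55_P2140453 was -0.0742 with the added and -1.64 with the planned normexp and ran between -0.325 and 1.18 when 1 sample was left out (-0.325 without pcDNA3.1 replicate 2). There planned normexp also gave Myh1 -1.50, Myh3 A_55_P2083406 -1.02 and Myh8 A_51_P143296 -1.52. For the plasmid groups against the negative control, Myh6 A_55_P2140453 was 0.56 with planned normexp, and Myh8 A_51_P143296 was -0.13 with quantile normalization, -0.24 with median centring, -0.13 in the authors' series table and between -0.0154 (without negative control replicate 2) and 0.368 when 1 sample was left out. For siRNA against the plasmid groups, Myh6 A_55_P2140453 was 0.14 with the added normexp, 0.21 with quantile normalization, 0.19 in the series table and between -0.662 and 0.0929 (without pcDNA3.1 replicates 1 and 3) when 1 sample was left out. The cause was not tested.

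Over all probes, 3549 were called with siRNA against the negative control, 11920 with 12 arrays, 17280 with the scan block, 2091 with the replicate block, 2263 without the filter, 188 with the compared groups alone and 0 with planned normexp. Between the plasmid groups 2 became 4368 with 12 arrays, 3737 with the scan block and 3674 with the compared groups alone. For the plasmid groups against the negative control 6240 became 15540, 23600 and 9520, and 160 with each group as 1 sample. For siRNA against the plasmid groups 5695 became 15400, 20660 and 11730, and 198. Leaving out 1 sample gave 2128 to 9247, 0 to 0, 1919 to 11360 and 1982 to 5632 in the 4 comparisons, and planned normexp 0, 0, 233 and 100. The added normexp called 22 probes between the plasmid groups, the values normalized by the authors gave 3 and the replicate block gave 1. The share of calls that were higher moved to 17.7% with median centring and 45.3% with quantile normalization for the plasmid groups against the negative control (60.6% before), to 38.7% with median centring for siRNA against the negative control (60.6% before), and to 77.0% and 67.2% for siRNA against the plasmid groups (53.9% before). With 2 samples per group precision is limited by their number, and Myh2, Myh4, Myh7b and Myh8 A_55_P2120161 by background.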
